A study of Mus musculus with 6 samples.

Results

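Between birth and day 4, 23 probes with a gene name, outside a set of gene families left out by name, had higher ovary RNA levels on every array. They were chosen by their values: a probe was taken when its log2 ratio of day 4 over day 0 was 0.5 or more on all 3 day 4 arrays and its annotation was a gene name. Names of oocyte growth factors, oligoadenylate synthetases, peptidyl arginine deiminases, ubiquitin, F-box, cyclin, histone, tropomyosin and solute carrier genes and a few others were left out. The threshold was met by 127 of the 8272 probes on the arrays (2.41% of the 5270 with a value on all 3 day 4 arrays), 39 of them had a gene name, 16 of these were left out by name, and 23 probes with 21 of the 2477 gene names on the arrays remained. The probes that could have been taken (named, not left out and with a value on all 3 day 4 arrays) numbered 1849. Because the day 4 values chose the probes, they are described below and not tested, and only day 2 gives values that the choice did not use.

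The study followed whole ovaries of C57Bl/6J mouse pups, with no other genotype and no treatment named in the labels. Day 0 ovaries, taken less than a day after birth, served as the reference, and day 2 and day 4 ovaries were each compared with them on 3 spotted 2-colour cDNA arrays. The later age was in Cy5 and day 0 in Cy3 on all 6 arrays, which leaves any dye effect of a single probe inside its ratio. Each array had its own day 2 or day 4 RNA, which the series text calls biological replicates, and array 3 of both ages used the same day 0 RNA. How many pups gave each RNA is not given in the sources used here.

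In the mouse ovary, germ cell nests break up around birth and each oocyte becomes enclosed by flat pregranulosa cells, which gives the primordial follicle. Some of these follicles start to grow at once: the oocyte enlarges and builds up stored RNA and its coat, and the granulosa cells turn cuboidal and divide. The series text places assembly at day 2 in this strain and the start of growth soon after it. Whole ovary RNA mixes all these cells, and in such samples a change in the number of cells of a type and a change in RNA per cell cannot be told apart.

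All 8272 probes had a value on each day 2 array and on day 4 array 2, while 7775 had one on day 4 array 1 and 5630 on day 4 array 3. Across probes, which are not independent replicates, day 4 arrays 1 and 2 ran together (r 0.75, 7775 probes), and so did array 3 of both ages (r 0.77, 5630 probes), the pair with a shared day 0 RNA. The first and second day 2 arrays moved in opposite directions (r −0.68 over 8272 probes and −0.73 over the 23 members), although the labels give both the same dyes and conditions. Over all probes both ran weakly in the direction of each day 4 array (r 0.27, 0.18 and 0.02 for array 1, 0.11, 0.24 and 0.22 for array 2). Over the 23 members array 1 had −0.15, −0.13 and −0.28 and array 2 had 0.53, 0.45 and 0.27. Which of the pair is nearer the true values cannot be told, and why they differ was not tested. The day 2 summaries below are therefore repeated after reversing the sign of each in turn.

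The promoter windows of the member genes were looked up among RefSeq sequences (GRCm38.p6), 250 bases before to 50 bases after each annotated start. Each member was chosen singly by its day 4 values, and movement together was not part of the rule. A window was found for 16 of the 19 genes with a symbol, 22 windows in all. Exo1, Entpd4 and Cdo1 were not matched. The E-box CACGTG, the palindrome that many basic helix-loop-helix and related factors recognise, was in 4 of 22 windows (18.2%), those of Tef, Galk1 and Pfkfb3, beside 7.15% of all 32851 windows in the table and 11.5% of the 1630 windows of genes with a symbol on the arrays. Symbols were given by hand (193 probes) or to clone-type names such as RIKEN (1698 probes), while other annotations had none. RIKEN, expressed sequence and DNA segment names could not become members, so these array genes are mostly of another kind than the members. Below, genes on the arrays means these genes with a symbol. The windows with CACGTG are shown first, then that of Tcl1, a gene known from the oocyte. Capitals mark each match, on either strand, to this or another of the motifs described after the sequences.
Tef, chr15:81802423-81802722, plus strand: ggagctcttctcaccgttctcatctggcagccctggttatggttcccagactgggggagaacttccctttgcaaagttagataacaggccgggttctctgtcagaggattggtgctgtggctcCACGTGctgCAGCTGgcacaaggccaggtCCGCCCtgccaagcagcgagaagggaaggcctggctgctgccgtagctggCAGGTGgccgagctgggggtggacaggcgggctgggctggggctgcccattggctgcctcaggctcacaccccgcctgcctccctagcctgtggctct
Tef, second start, chr15:81811164-81811463, plus strand: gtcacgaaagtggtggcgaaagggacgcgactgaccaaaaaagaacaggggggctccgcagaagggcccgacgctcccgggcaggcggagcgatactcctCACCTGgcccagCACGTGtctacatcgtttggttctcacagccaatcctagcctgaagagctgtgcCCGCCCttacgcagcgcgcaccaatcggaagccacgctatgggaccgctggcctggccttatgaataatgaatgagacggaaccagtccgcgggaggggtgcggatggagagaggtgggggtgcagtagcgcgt
Pfkfb3, chr2:11502041-11502340, minus strand: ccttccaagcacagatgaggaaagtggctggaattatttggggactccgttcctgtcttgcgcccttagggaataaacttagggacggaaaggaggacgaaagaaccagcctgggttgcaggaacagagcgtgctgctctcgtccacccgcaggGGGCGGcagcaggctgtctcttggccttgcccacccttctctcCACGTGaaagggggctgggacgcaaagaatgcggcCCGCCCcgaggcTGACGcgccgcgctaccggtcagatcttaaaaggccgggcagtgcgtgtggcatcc
Galk1, chr11:116012670-116012969, minus strand: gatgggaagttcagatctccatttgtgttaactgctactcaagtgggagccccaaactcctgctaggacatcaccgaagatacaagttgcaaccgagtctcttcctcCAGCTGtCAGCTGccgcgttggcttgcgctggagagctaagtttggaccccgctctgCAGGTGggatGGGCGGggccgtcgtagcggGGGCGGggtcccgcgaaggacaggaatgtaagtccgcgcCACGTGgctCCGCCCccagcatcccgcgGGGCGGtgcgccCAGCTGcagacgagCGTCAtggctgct
Tcl1, chr12:105222688-105222987, minus strand: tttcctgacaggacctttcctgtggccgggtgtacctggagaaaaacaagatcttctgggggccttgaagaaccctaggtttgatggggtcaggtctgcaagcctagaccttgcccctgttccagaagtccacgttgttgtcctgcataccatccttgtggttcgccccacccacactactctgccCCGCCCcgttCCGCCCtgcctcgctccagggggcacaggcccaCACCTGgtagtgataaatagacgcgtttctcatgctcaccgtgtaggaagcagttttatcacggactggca

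In the first Tef window CACGTG began 127 bases before the start, in the second 138 bases before it, in that of Pfkfb3 53 bases and in that of Galk1 17 bases before it. The E-box CAGGTG was in 6 of 22 windows (27.3%; 20.2% of all windows and 16.9% of those of genes on the arrays). The Tcl1 window held it on its minus strand, 21 bases before the start. CAGCTG, the third E-box searched, was in 4 windows (18.2%, beside 16.3% and 14.3%). GGGCGG, the GC box, was in 17 windows (77.3%), where 35.7% of all windows and 64.2% of those of genes on the arrays held it. The CRE core TGACG was in 7 (31.8%, beside 20.8% and 32.9%) and the TATA box motif, searched as TATAAA, was found in 2 (9.09%, beside 13.6% and 6.63%). Of the homeobox motifs of the kind that the oocyte factor NOBOX binds, TAATTA was in 1 window, that of Cpa1 (4.55%, beside 5.29% and 2.82%), and TAATTG in 0 of 22 (8% of all windows and 4.23% of those of genes on the arrays). The median GC content was 64.3% in the member windows, 61.3% in those of genes on the arrays and 52.7% in all windows. Both strands were searched, a motif that reads the same on both was counted once, and no test was made on these shares.

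At day 4 the members' mean log2 ratios ran from 0.60 (1.51-fold, Naa50) to 2.27 (4.82-fold, Tef), with a median of 1.02 (2.02-fold). The standard deviation (SD) over the 3 arrays ran from 0.02 (Pfkfb3) to 0.82 (Zfp36), with a median of 0.20. In the fit across all probes 3 members passed (limma, adjusted p under 0.05): Tef, 1 of the 2 probes of Exo1 and the probe named similar to dJ1198H6.2. Over all 8135 probes tested, 39 were called higher (0.479%) and 0 lower, and since the choice used these same values nothing is read from the members' count. Leaving out any single day 4 array, day 2 array 3 or both arrays 3 brought the members' count to 0, and so did reversing day 2 array 2 (16 to 20 members at an unadjusted p under 0.05, limma). Without day 2 array 2 it was 5.

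**Figure D1:**
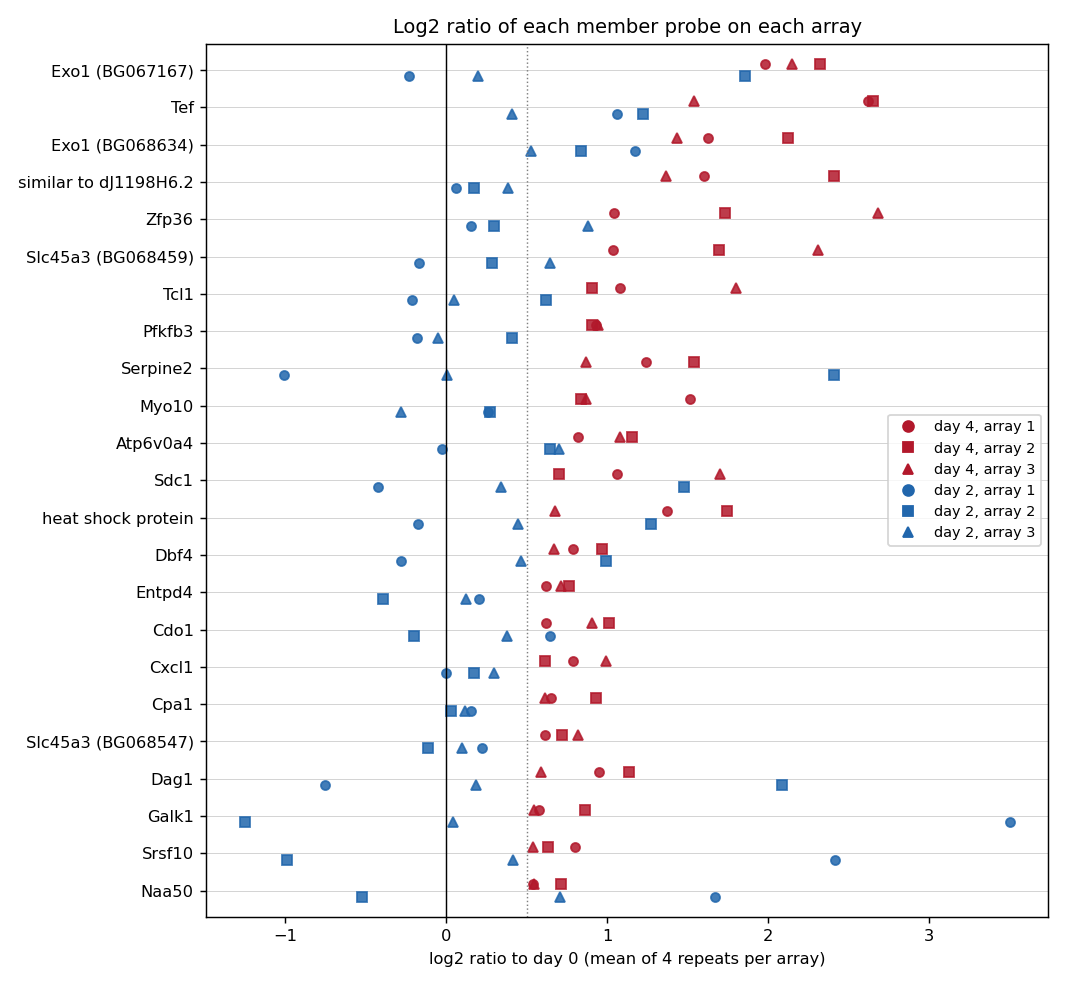
Log2 ratio to day 0 of each of the 23 member probes (rows, ordered by their lowest day 4 value) on each day 4 array (red) and day 2 array (blue); marker shapes stand for arrays 1, 2 and 3, each point is the mean of the repeats with a value (4 for 133 of the 138 points), and the dotted line is the threshold of 0.5. All red points lie at or right of the threshold by the choice of the probes, with the 3 day 4 points of Pfkfb3 between 0.90 and 0.94, while the day 2 points of Galk1 span −1.25 to 3.50.

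Exo1, a 5′ to 3′ exonuclease of DNA mismatch repair that also processes DNA ends in meiotic recombination, had 2 probes among the members. Probe BG067167 had log2 ratios of 1.98, 2.32 and 2.15 on day 4 arrays 1, 2 and 3, the highest lowest value of all members, and a mean of 2.15 ± 0.17 (SD, n = 3, 4.44-fold). At day 2 it had −0.23, 1.85 and 0.20, so that array 2 stood far above the other two. Probe BG068634 had 1.63, 2.12 and 1.43 at day 4 (mean 1.73 ± 0.36, 3.31-fold) and 1.17, 0.84 and 0.52 at day 2. Both probes had all 3 day 4 values above all 3 day 2 values, and the second was above 0 on every array.

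Dbf4, annotated as activator of S phase kinase, is the regulatory subunit of the Cdc7 kinase that fires replication origins. It had 0.78, 0.97 and 0.67 at day 4 (mean 0.81 ± 0.15, 1.75-fold) and −0.28, 0.99 and 0.46 at day 2, so that its day 2 array 2 value was above all its day 4 values. Among the listed DNA repair and recombination genes, 32 were measured: 2 rose at day 4 and 0 fell, beside 39 (0.479%) and 0 of 8135 probes tested. Of the 32, 12 were above 0, with a median log2 ratio of −0.10 beside 0.00 over all probes tested. The list was chosen with earlier results of these data known, so nothing is read from its counts. The 2 that rose were Slx4ip and Ddias (n = 3 each). Slx4ip, which binds a repair nuclease scaffold, had 1.90 ± 0.15 (SE, adjusted p = 0.00954, limma). Ddias, named as a suppressor of apoptosis induced by DNA damage, had 2.67 ± 0.33 (SE, adjusted p = 0.0422, limma). The brightest Exo1 probe, which stood for the gene in this list, had 2.15 ± 0.38 (SE) and did not pass (adjusted p = 0.108, limma).

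Tef, thyrotroph embryonic factor, is a transcription factor of the PAR bZIP family, whose levels follow the circadian clock in many tissues. Its member probe had the largest mean, with 2.62, 2.65 and 1.54 at day 4 (2.27 ± 0.63, 4.82-fold) and 1.06, 1.22 and 0.41 at day 2. Arrays 1 and 2 were high and array 3 low at both ages, and the groups did not overlap. In the circadian and PAR bZIP list 0 of 6 measured genes passed the test at day 4 and 0 had an unadjusted p under 0.05 (9.29% of all probes, limma), with a median of 0.03. The brightest Tef probe, which stood for the gene in that list, was not the member.

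Zfp36, tristetraprolin, binds AU-rich elements and speeds the decay of the mRNAs that carry them. It had 1.04, 1.73 and 2.68 at day 4 (mean 1.82 ± 0.82, 3.53-fold), the widest spread of the members, and 0.16, 0.30 and 0.88 at day 2. Array 3, whose day 0 RNA was shared, was the highest at both ages, and the highest day 2 value stayed below the lowest day 4 value. Of 30 measured genes of mRNA decay and translational control 0 passed the test at day 4, 12 were above 0 and the median was −0.02, and 5 had an unadjusted p under 0.05 (limma; 9.29% of all probes). Srsf10, a splicing regulator of the SR family, had 0.80, 0.63 and 0.54 at day 4 (mean 0.66 ± 0.13, 1.58-fold). At day 2 it had 2.41, −0.99 and 0.42, values of opposite sign on arrays 1 and 2. Naa50, an enzyme that acetylates protein N-termini, had 0.54, 0.71 and 0.55 at day 4, the lowest mean of the members (0.60 ± 0.10), and 1.67, −0.53 and 0.71 at day 2.

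Tcl1, a coactivator of the kinase Akt known from oocytes and early embryos, had 1.08, 0.91 and 1.80 at day 4 (mean 1.26 ± 0.47, 2.40-fold) and −0.21, 0.62 and 0.05 at day 2. Its highest day 2 value lay below its lowest day 4 value. The probe named similar to dJ1198H6.2, an annotation that gives no gene, had 1.60, 2.41 and 1.37 at day 4 (mean 1.79 ± 0.55, 3.46-fold) and only 0.06, 0.17 and 0.38 at day 2. It had the largest step between the ages, a difference of 1.59 on the log2 scale between their means. The probe named heat shock protein, with no family given, had 1.37, 1.74 and 0.68 at day 4 (mean 1.26 ± 0.54) and −0.17, 1.27 and 0.45 at day 2, and its groups overlapped.

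Several members encode proteins of the cell surface or proteins that are secreted, and Myo10 is a motor. Serpine2, protease nexin-1, an inhibitor of serine proteases outside the cell, had 1.24, 1.54 and 0.87 at day 4 (mean 1.22 ± 0.34, 2.32-fold). Its day 2 values of −1.01, 2.41 and 0.00 reached from the lowest to the highest of its 6 arrays. Sdc1, syndecan-1, a heparan sulfate proteoglycan, had 1.06, 0.70 and 1.7 at day 4 (2.23-fold, SD 0.51) and −0.42, 1.48 and 0.34 at day 2. Dag1, dystroglycan, a laminin receptor, had 0.95, 1.13 and 0.59 at day 4 (mean 0.89 ± 0.28) and −0.75, 2.09 and 0.19 at day 2. For the member probes of all 3 genes day 2 array 1 was negative and array 2 was above the day 4 mean. Cxcl1, a chemokine that draws neutrophils, had 0.62 to 0.99 at day 4 (mean 0.80 ± 0.19) and 0.00 to 0.30 at day 2. Cpa1, a carboxypeptidase best known from the exocrine pancreas, had 0.62 to 0.93 at day 4 (mean 0.73 ± 0.17) and 0.03 to 0.16 at day 2, the smallest day 2 spread of the members (SD 0.06). Myo10, an unconventional myosin of filopodia, had 1.51, 0.84 and 0.87 at day 4 (mean 1.07 ± 0.38, 2.10-fold) and 0.26, 0.27 and −0.28 at day 2. In these last 3 genes every day 4 value lay above every day 2 value.

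Enzymes and transporters made up the rest. Pfkfb3, which makes the fructose 2,6-bisphosphate that drives glycolysis, had 0.93, 0.90 and 0.94 at day 4, the closest agreement of any member (mean 0.93 ± 0.02, 1.90-fold), and −0.18, 0.41 and −0.05 at day 2. Atp6v0a4, a membrane subunit of the proton pump of acid compartments, had 0.82, 1.15 and 1.08 at day 4 (mean 1.02 ± 0.18, 2.02-fold) and −0.03, 0.65 and 0.70 at day 2. For both genes the ages did not overlap. Slc45a3, annotated as prostein, a membrane transporter named from the prostate, was on the arrays with 2 probes, both members. By its symbol it is a solute carrier gene, and it stayed because its annotation lacks those words. Probe BG068459 had 1.03, 1.69 and 2.31 at day 4 (mean 1.68 ± 0.64, 3.20-fold) and probe BG068547 had 0.61, 0.72 and 0.82 (mean 0.72 ± 0.10, 1.64-fold). Array 1 was lowest and array 3 highest for both probes, at different sizes. Galk1, which phosphorylates galactose, had 0.58, 0.86 and 0.55 at day 4 (mean 0.66 ± 0.17), and its day 2 values of 3.50, −1.25 and 0.04 were the widest of any member (SD 2.46). Entpd4, a nucleotidase of lysosomes and the Golgi that has a near-identical copy, Entpd4b, which a clone may not tell apart, had 0.62 to 0.76 at day 4 (mean 0.70 ± 0.07) and −0.39 to 0.20 at day 2. Cdo1, which oxidises cysteine, had 0.62 to 1.01 (mean 0.84 ± 0.20) and −0.20 to 0.64 at day 2.

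The 3 day 4 arrays did not weigh the members alike. Array 2 was the highest of the 3 for 14 members, array 3 for 7 and array 1 for 2, and array 3 was the lowest for 10. The members' medians were 0.95, 0.97 and 0.90 on arrays 1, 2 and 3. All 271 single repeats of the members at day 4 were above 0, with 0.29 the lowest, and 12 members had at least 1 repeat under the threshold. The SD over the repeats within an array had a median of 0.18 at day 4 (range 0.05 to 0.51) and 0.16 at day 2 (range 0.03 to 0.81). The authors flagged 15 of the 138 member values for repeats that differed, 7 of them on a day 4 array, and 0 for low signal or a failed area. A failed area was flagged only on day 4 array 3 (2640 probes), where the flagged further probes of member names had no value. Members needed a value on that array, so the absence of failed areas is no measure of their quality. The members were mostly brighter than the median probe: 15, 16 and 16 of 23 on day 2 arrays 1, 2 and 3, and 17, 16 and 15 on the day 4 arrays.

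Next to the threshold, the 3 members just inside were Naa50, Srsf10 and Galk1, with lowest day 4 values of 0.54, 0.54 and 0.55. The 3 named probes just outside were epoxide hydrolase 2, with 0.92, 0.68 and 0.48, nuclear protein 95, with 1.40, 0.48 and 1.35, and high density lipoprotein binding protein, with 0.46, 0.63 and 0.60. At a threshold of 0.4 there would be 39 members, at 0.6 there would be 19 and at 1 there would be 6. Another 34 named probes had 0.5 or more on 2 day 4 arrays and no value on the other, in 33 cases array 3. Without array 3 the rule would take 108 probes, so that the list depends on which probes that array measured.

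Probes of the same name did not always follow the member. Of the 21 names, 9 had 13 further probes, 8 of which had values on all 3 day 4 arrays. Of the 13, 3 were at 0.5 or more on every day 4 array with a value, 7 were above 0 on each, and 5 had a negative mean. The second probe named similar to dJ1198H6.2 had 0.93 and 2.33 on day 4 arrays 1 and 2, that named heat shock protein had 1.08, 1.38 and 0.41, that of Myo10 had 1.71 and 1.11, and that of Sdc1 had 1.06, 0.87 and 0.39. These 4 ran in the direction of their member. One further Tef probe had 0.83 and 1.23 on arrays 1 and 2, and the brightest had −0.09 and −0.06, with no value of either on array 3, where the member probe had its lowest ratio.

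The remaining names gave lower ratios on their other probes. The other Atp6v0a4 probe had −0.55, −0.16 and −0.13, all below 0, against 0.82 to 1.15 for the member. The second Dag1 probe had 0.49, −0.06 and 0.06. For Srsf10 the further probes had −0.04, 0.12 and −1.26 and −0.22, −0.19 and −1.69, so that array 3 was the low one in both. For Dbf4 they had 0.24, 0.41 and 0.24, then −0.11, −0.06 and −0.68, and 0.04 and 0.28 with no value on array 3. For Srsf10, Dag1, Dbf4 and Atp6v0a4 a ratio of 0.5 or more on every day 4 array was thus seen with 1 probe. The same held for Sdc1 and heat shock protein. For Tef, Myo10 and similar to dJ1198H6.2 the further probes had no value on array 3. Of the further Dbf4 probes, 2 were above 0 on each array with a value. Whether the clones of a name detect the same transcript was not tested.

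**Figure D2:**
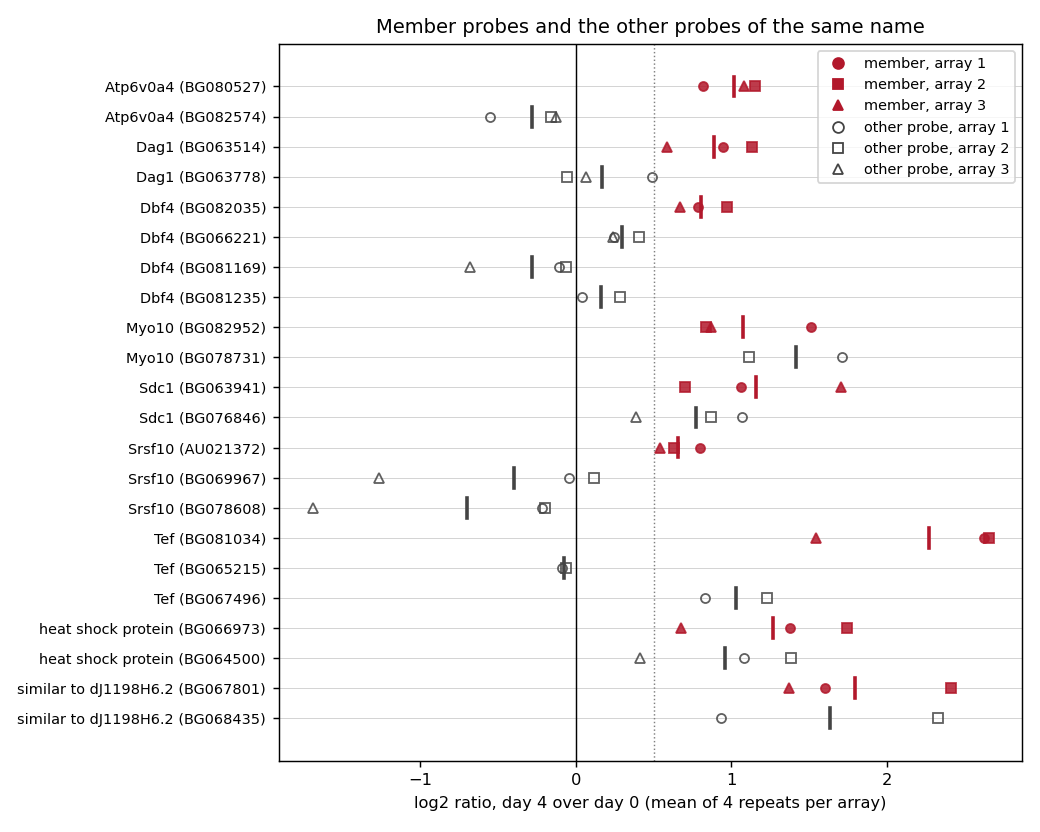
Log2 ratio of day 4 over day 0 on each array for the member probes (filled red) and the other probes of the same name (open grey) of the 9 names with further probes; marker shapes are arrays 1, 2 and 3, vertical bars the mean, and the dotted line the threshold of 0.5. The other probes of Atp6v0a4 and Srsf10 have negative means, while those of Myo10, Sdc1, heat shock protein and similar to dJ1198H6.2 lie on the side of their member.

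At day 2, the age that the choice did not use, no member passed the test against day 0, and neither did any of the 8135 probes (0%, limma). The smallest adjusted p was 0.966 among the members and 0.609 over all probes. At an unadjusted p under 0.05 there were 3 of 23 members and 231 of all probes (2.84%). The fitted log2 ratio was above 0 for 22 of 23 members, where 52.4% of all probes were above 0, and the members' median was 0.44 beside 0.01. The later age was in Cy5 and day 0 in Cy3 on all 6 arrays. A probe's dye effect would thus enter both its choice at day 4 and these day 2 ratios, which was not tested. On all 3 day 2 arrays 6 members were above 0, with 9.04% of all probes doing so: Exo1 (BG068634), Tef, Zfp36, similar to dJ1198H6.2, Cxcl1 and Cpa1. The single value of Cxcl1 on array 1 was 0.00.

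The 6 members with the smallest p-values at day 2 were Exo1 (BG068634), Tef, Atp6v0a4, Dbf4, heat shock protein and Naa50. Exo1 had 0.84 ± 0.18 (SE, n = 3, unadjusted p = 0.0037, limma), Tef had 0.90 ± 0.27 (0.0159) and Atp6v0a4 had 0.44 ± 0.17 (0.0439), each with an adjusted p of 0.966. Dbf4 had 0.39 ± 0.24, heat shock protein 0.51 ± 0.31 and Naa50 0.62 ± 0.38 (unadjusted p 0.152, 0.152 and 0.154). Exo1 and Tef were positive on 3 of 3 arrays, and the other 4 on 2 of 3.

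These day 2 values rest on the array. Array 1 had 13 of 23 members above 0 (49.7% of all probes) and a member median of 0.06, array 2 had 17 (51.7%) and 0.30, and array 3 had 21 (49.6%) and 0.34. Array 3 shared its day 0 RNA with day 4 array 3, which the choice used, so that its count is not independent of the choice. Arrays 1 and 2 also deviated together with the same-numbered day 4 arrays (r 0.32 and 0.12), so that their counts may not be fully independent either. On arrays 1 and 2 the members had opposite signs in 16 of 23 cases (69.6%), and all probes in 74.9%. The member probes of Serpine2, Dag1, Exo1 (BG067167) and Sdc1 were high on array 2 and negative on array 1, and those of Galk1, Srsf10 and Naa50 the reverse. Other probes of a name did not always share this. On arrays 1 and 2 the other Sdc1 probe had 2.44 and −0.84, and that of Dag1 had 1.08 and −0.72. For Srsf10, probe BG069967 had −0.15 and 0.20, and BG078608 had 0.15 and −0.81. After reversing array 1, 15 of 23 members were above 0 with a median of 0.18, and after reversing array 2, 14 were, with a median of 0.06. Without array 3 of both ages 22 were above 0 and the median was 0.31. Without day 2 array 1 the count was 18 and the median 0.33, and without day 2 array 2 they were 16 and 0.16. The member probe of Tef and Exo1 (BG068634) were high on both, with 1.06 and 1.22 and with 1.17 and 0.84 on arrays 1 and 2. Zfp36, similar to dJ1198H6.2, Myo10, Cxcl1 and Cpa1 were also above 0 on both, with lower values. The other Tef probes differed from the member: the brightest had −0.95 and 1.06, and BG067496 had −0.01 and −0.04.

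**Figure D3:**
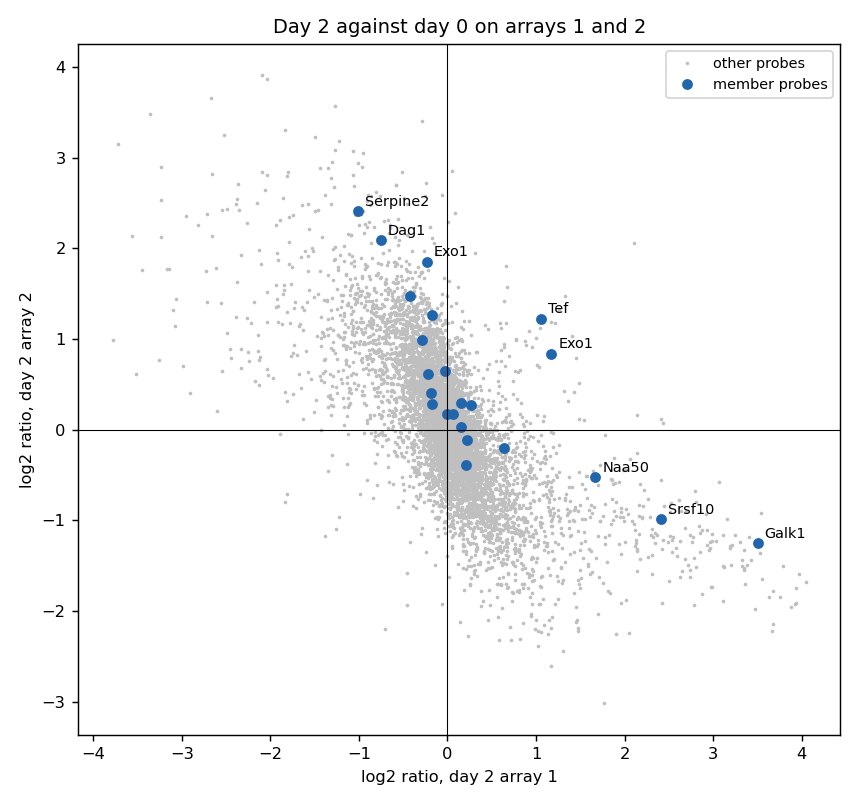
Log2 ratio of day 2 over day 0 on array 1 (x axis) and array 2 (y axis) for the member probes (blue) and all other probes (grey), one point per probe. The grey points run from upper left to lower right (r −0.68), members such as Serpine2 and Galk1 lie at the ends of that band, and Tef and the Exo1 probe BG068634 lie in the upper right with positive values on both arrays.

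Between day 2 and day 4 the members' mean was higher at day 4 for 21 of 23 probes, the exceptions being Galk1 and Naa50. In 14 of 23 every day 4 value was above every day 2 value, which held for 4.14% of the 5270 probes with values on all 6 arrays, a count that the choice of members fixes in part. In the fit, which did not pair the arrays, 0 of 8135 probes differed between the ages (0%, limma). At an unadjusted p under 0.05 (limma) there were 215 (2.64%), and 13 of the members. The members' count uses the day 4 values that chose them, so nothing is read from it. The largest steps were those of similar to dJ1198H6.2 (1.59 ± 0.30, SE), Exo1 BG067167 (1.54 ± 0.54), Slc45a3 BG068459 (1.42 ± 0.38), Zfp36 (1.37 ± 0.45) and Tef (1.37 ± 0.38).

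The members had smaller day 4 ratios in the median than the other probes past the same threshold. Their median day 4 mean was 1.02, beside 1.84 for the 16 named probes left out by name and 1.54 for the 88 without a gene name. At day 4 the fit called 3 of 23, 8 of 16 and 23 of 88 probes of these sets, beside 39 of 8135 probes tested (0.479%). Since the day 4 values chose the sets, nothing is read from these counts. At day 2 the share above 0 on all 3 arrays was 26.1% of the members, 62.5% of the probes left out by name and 36.4% of those without a name, beside 9.01% of probes with values on all 6 arrays. All these sets were chosen on day 4, and their difference was not tested.

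Markers of the cells of the ovary moved beside the members. Of 31 oocyte markers 12 were measured, and 10 were above 0 at day 4, with a median of 1.00. Past the test, 3 rose (as did 0.479% of all probes tested) and 0 fell. The 3 were H1f8, the oocyte linker histone (2.39 ± 0.12, SE, adjusted p = 0.00862), Oas1d (3.05 ± 0.30, adjusted p = 0.0208) and Nlrp14 (3.64 ± 0.41, adjusted p = 0.0329), each by limma with n = 3. The oocyte list's median was 0.76, 1.22 and 1.75 on day 4 arrays 1, 2 and 3, and −0.04, 0.55 and 0.29 on the day 2 arrays. No member gene was in a cell marker list. The rule left out several of these markers by name, among them Gdf9, Bmp15, Oas1d, Padi6 and Tpm1. Their absence was thus fixed by the rule, and nothing is read from it. Granulosa cell markers had a median of 0.58 (4 of 24 measured, all above 0), steroidogenic and theca cell markers 0.32 (4 measured, 3 above 0) and smooth muscle and stromal markers 0.45 (7 measured, 6 above 0). Erythroid and blood cell markers had −0.72 (6 measured, 1 above 0), endothelial markers −0.44 (5 measured, 1 above 0), surface epithelium and keratin markers −0.34 (5 measured, 1 above 0) and the leukocyte marker Lyz2 −0.45. Of these 32 markers outside the oocyte list 0 passed the test at day 4 and 14 had an unadjusted p under 0.05 (limma), as did 9.29% of all probes. Ratios to day 0 give no level, so that which markers are near 0 in the tissue cannot be read from them, and the part of these shifts in the members' values was not tested.

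Of 40 measured endosome and vesicle traffic genes, 12 were above 0 at day 4, with a median of −0.12. Past the test, 1 rose (as did 0.479% of all probes tested) and 0 fell. That gene was Appl1, an adaptor of early endosomes (1.20 ± 0.10, SE, n = 3, adjusted p = 0.0105, limma). At day 2, 0 of the 152 measured entries of the 12 lists (150 genes) passed the test and 10 had an unadjusted p under 0.05 (limma; 2.84% of all probes). The lists of the pathways that hold Exo1, Zfp36 and Tef had medians of −0.10, −0.02 and 0.03 at day 4. The member probes had means of 1.73 to 2.27, but they were chosen for high day 4 values, which fixes their place above such medians.

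**Figure D4:**
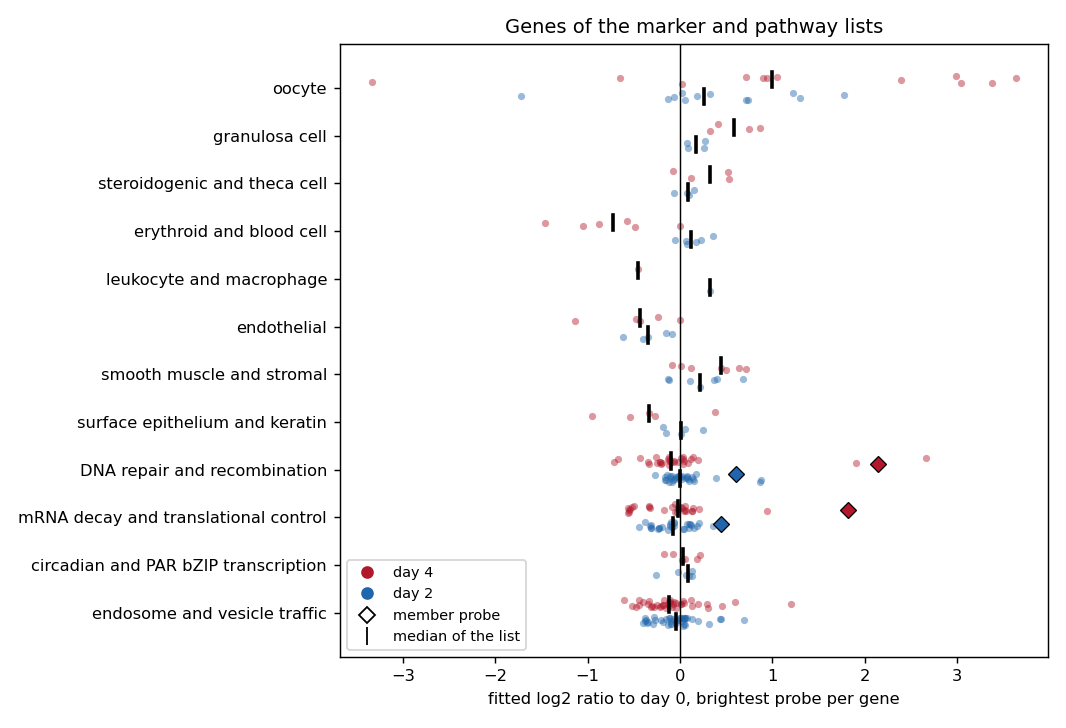
Fitted log2 ratio to day 0 at day 4 (red) and day 2 (blue) for each measured gene of 8 marker lists and 4 pathway lists, with the brightest probe standing for a gene; black bars are list medians and diamonds are member probes. The oocyte list has a median of 1.00 at day 4, and the diamonds of Exo1 and Zfp36, which were chosen for high day 4 values, lie at 2.15 and 1.82.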

How the data were processed

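Per the file headers, each array's deposited values were up to 4 spot repeats per probe, as log2 ratios of the later age (Cy5) over day 0 (Cy3) with flags and mean intensities, already normalized by the authors. R 1.7.1 is named in the submitters' processing notes. The method of background correction and normalization was not given in the sources used here. Repeats were averaged, and the ratios were not normalized again. One mean per age was fitted to the 6 arrays (3 per age) in limma 3.58.1 (R 4.3.3), with moderated variances and 2-sided tests. A probe was tested if 2 or more arrays of each age had it (8135 of 8272). Benjamini-Hochberg adjustment covered all tested probes, with 0.05 as the threshold. SD is over arrays and SE is from the fit. Precision is limited by having few arrays, with a median SE of 0.17 (log2) at day 2 and 0.19 at day 4.

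The day 4 rule above chose the members. Members and lists were chosen with earlier results of these data known. By rule, values on every array are given for members past the fit, the 12 with the highest lowest day 4 value, the 6 with the smallest day 2 p, those with another probe of the same name and those next to the threshold. Annotations were turned into symbols by hand (193 probes) or, for clone-type names such as RIKEN, through RefSeq symbols and synonyms (1698 probes). Other annotations were given no symbol. For each listed gene the brightest probe stood.

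Same-numbered arrays of the 2 ages deviated together from their group means (r 0.32, 0.12 and 0.56 for arrays 1, 2 and 3). The numbers were thus taken as pairing the arrays. The main fit did not use this pairing, and the replicate block was an alternative. For array 3 the pairing also comes from the shared day 0 RNA in the file headers. Alternatives covered centring, scaling, flags, repeats, filters, variance models, blocks, sign and left-out arrays. The code was tested on simulated data.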

Additional observations from a re-analysis of the deposited data

How the results depend on the processing

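The 20 alternative settings left the members uncalled at day 2, and 7 of 23 members kept the sign of their day 2 value under each of them. Scale normalization gave 98 probes and 9 members called at day 4 and a day 2 member median of 0.26, with Entpd4 at 0.0523 and Pfkfb3 at −0.0126. Limma with a trend gave 125 probes and 11 members at day 4 and 1 probe for day 4 against day 2. The fit on the arrays of one age, which leaves the day 2 spread out, gave 166 and 17. Turning day 2 array 2 gave 0 probes and 0 members (897 and 20 at an unadjusted p under 0.05, limma), and leaving out array 3 of both ages gave 0 and 0 (433 and 16). The cause of these changes was not tested. Without each array in turn the calls at day 4 ran from 0 to 71 probes and 0 to 5 members, the day 2 member median from 0.16 to 0.44, and the number of members from 39 to 108 over the day 4 arrays. A threshold of 0.4 gave 39 members and one of 1 gave 6.

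With the replicate block as a random effect (correlation 0.194) 48 probes and 3 members were called at day 4 and 0 probes for day 4 against day 2 (294 at an unadjusted p under 0.05), and with the block fixed 0 probes (224). The pairing changed no other call.

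The day 2 median was 0.18 with array 1 turned and 0.0633 with array 2 turned. Turning array 1 gave −0.995 for Srsf10, −0.50 for Naa50, −1.57 for Galk1, −0.0029 for Cpa1, −0.0782 for Slc45a3 (BG068547), −0.15 for Cdo1 and −0.0899 for Myo10. Turning array 2 gave −0.89 for Dag1, −0.52 for Sdc1, −0.33 for heat shock protein, −0.63 for Exo1 (BG067167), 0.24 for Entpd4, −0.21 for Pfkfb3, −1.14 for Serpine2, −0.26 for Tcl1, −0.27 for Dbf4 and −0.10 for Myo10. Leaving out 1 array at a time, the day 2 value ran from −0.28 to 1.14 for Dag1, −0.14 to 0.16 for Entpd4, −0.0178 to 1.03 for Exo1 (BG067167), −0.61 to 1.77 for Galk1, −0.0099 to 0.27 for Myo10, −0.12 to 0.18 for Pfkfb3, −0.0414 to 0.91 for Sdc1, −0.50 to 1.20 for Serpine2, −0.0056 to 0.16 for Slc45a3 (BG068547), −0.29 to 1.41 for Srsf10 and −0.0841 to 0.33 for Tcl1.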
